A study of Rattus norvegicus with 24 samples.

Results

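The data described here compare all 12 exercised rats with all 12 sedentary rats of a study of aerobic training in cardiac cachexia (CC), the muscle wasting that accompanies advanced heart failure. The exercised rats were the groups Ex and CC-Ex and the sedentary rats the groups Sed and CC-Sed, so that all 24 rats of the series entered the comparison, with the injection each rat had received as a second term in the model. All 24 were male Wistar rats. Sed and Ex were injected with saline. CC-Sed and CC-Ex were injected a single time with monocrotaline, a plant alkaloid that damages the vessels of the lung and leads to failure of the right side of the heart. Ex and CC-Ex ran on a treadmill on 5 days a week for 4 weeks at a moderate share of their maximal capacity. The sedentary rats were not naive to the treadmill, since every rat was familiarised with it and ran to exhaustion in a test before and after the training period, and all muscles were taken at least 2 days after the last test. RNA came from the medial gastrocnemius of the left leg, a calf muscle made mostly of fast fibres, with 1 library for each rat and 6 rats in each group. Age is not given in the sources used here.

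Endurance training is known to raise the mitochondrial content, the capillary supply and the capacity for fat oxidation of skeletal muscle, partly through the coactivator Ppargc1a, and to shift fibres towards slower, more oxidative types. Exercise also acts on protein quality control, where heat shock proteins refold damaged proteins and the proteasome degrades those marked with ubiquitin by ligases such as Fbxo32 and Trim63. The question put to these data is which of such shifts healthy and cachectic rats share.

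Total counts lay between 37816239 and 50350554 per rat, and training did not move them detectably (difference of 0.0316 on the log2 scale, two-sided exact permutation p = 0.504). Of 12 skeletal muscle markers 10 were measured, and together they summed to between 128100 and 256500 CPM (the count scaled for library size) per rat, while none of 12 lymphocyte markers was in the table. Only genes with a count of at least 10 in every rat were deposited. CC-Ex replicate 5 stood apart from the other 23 rats. On the component that held 39.7% of the variance it lay at 96.5 units, against 16.8 for the next CC-Ex rat and 51.7 for the highest of CC-Sed. Since this rat is one of the exercised, values without it are given beside the results that it moves most. In all of these rats a lower amount of a transcript in bulk RNA can come from fewer cells of a type or from less RNA per cell, which cannot be told apart.

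No gene passed the test between exercised and sedentary rats. Of 10851 genes tested, 0 had an adjusted p under 0.05 in edgeR's quasi-likelihood test (0%), 0 did so in DESeq2 and 0 in limma-voom. The smallest adjusted p was 1 after rounding in edgeR and 0.775 in limma-voom. Before adjustment 192 genes (1.77%) had a p under 0.05, 108 of them higher (0.995%) and 84 lower (0.774%) in the exercised rats. DESeq2 gave 252 such genes (2.32%) and limma-voom with sample weights 585 (5.39%). Evenly spread p-values, as without any training effect, would put 5% of genes under 0.05. The edgeR and DESeq2 shares were below that and the limma-voom share was near it. In the same edgeR model the injection term called 3154 genes (29.1%).

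The intervals around these differences were narrow for most genes. The median size of the log2 fold change (Log2FC) between exercised and sedentary rats was 0.0634, with a median standard error of 0.122. For 10526 genes (97.0%) the 95% interval lay within a 2-fold change in either direction, and for 9140 genes (84.2%) within a 1.5-fold change. Training accounted for 2.21% of the variance of log2 CPM over all genes, the injection for 19.5% and the differences between rats of a group for 75.7%, which is 3.79% for each of their 20 degrees of freedom. None of the leading 5 components separated exercised from sedentary rats (two-sided exact permutation p = 0.148 to 0.929, adjusted p = 0.519 to 0.929).

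Only 3 genes (0.0276%) had the same direction and an unadjusted p under 0.05 in both the saline and the monocrotaline rats, and 1 gene had opposite directions (0.00922%). The 3 were Tmem254, which encodes a predicted transmembrane protein, and Nap1l3, of the nucleosome assembly protein family, both higher in exercised rats, and Tmem64, which encodes another membrane protein, lower in exercised rats. They were counted because of these values, so the values describe the choice. Their number was 6 in DESeq2 and depended on single rats, being 1 without Ex replicate 6, 5 without Sed replicate 1, Sed replicate 3, Ex replicate 3 or CC-Sed replicate 4, 7 without CC-Sed replicate 2 and 26 without CC-Ex replicate 5.

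Tmem254 lay at 1.06 to 1.30 CPM (median 1.14) in Sed and at 1.08 to 2.10 CPM (median 1.504) in Ex. In the monocrotaline rats it lay at 0.471 to 0.977 CPM (median 0.772) in CC-Sed and at 0.864 to 1.25 CPM (median 0.985) in CC-Ex. All 6 CC-Ex rats and 5 of the 6 Ex rats were above the median of the sedentary rats with the same injection, but the ranges overlapped within each injection. Its Log2FC was 0.43 in saline rats and 0.43 in monocrotaline rats, and 0.43 when pooled (standard error 0.122, 95% interval 0.18 to 0.69, unadjusted p = 0.00168, edgeR adjusted p = 1), which was the smallest p of all genes.

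Nap1l3 showed the same order. It ranged from 0.446 to 1.02 CPM (median 0.734) in Sed, 0.733 to 1.32 CPM (median 1.04) in Ex, 0.670 to 1.20 CPM (median 0.809) in CC-Sed and 0.751 to 1.49 CPM (median 1.15) in CC-Ex, so that the medians of both exercised groups were above 1 CPM and those of both sedentary groups below it. The pooled Log2FC was 0.47 (standard error 0.142, unadjusted p = 0.00322), and 0.52 without CC-Ex replicate 5, which was the lowest CC-Ex rat. Tmem254 and Nap1l3 both lay near the floor of the deposited counts, where counting error is a larger part of the spread.

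Tmem64 was lower in exercised rats. Its level was 32.6 to 74.4 CPM (median 38.6) in Sed against 24.9 to 33.6 CPM (median 31.1) in Ex, and 30.7 to 85.3 CPM (median 60.2) in CC-Sed against 32.03 to 65.3 CPM (median 40.2) in CC-Ex. All 6 Ex and 5 of 6 CC-Ex rats were below the sedentary median, the exception being CC-Ex replicate 5 at 65.3 CPM. When pooled, the Log2FC was -0.51 (standard error 0.159, unadjusted p = 0.00372). The highest sedentary values came from Sed replicate 5 (74.4 CPM) and from CC-Sed replicates 1 (83.5 CPM) and 6 (85.3 CPM), and without these 3 rats the Log2FC was -0.26.

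**Figure D1:**
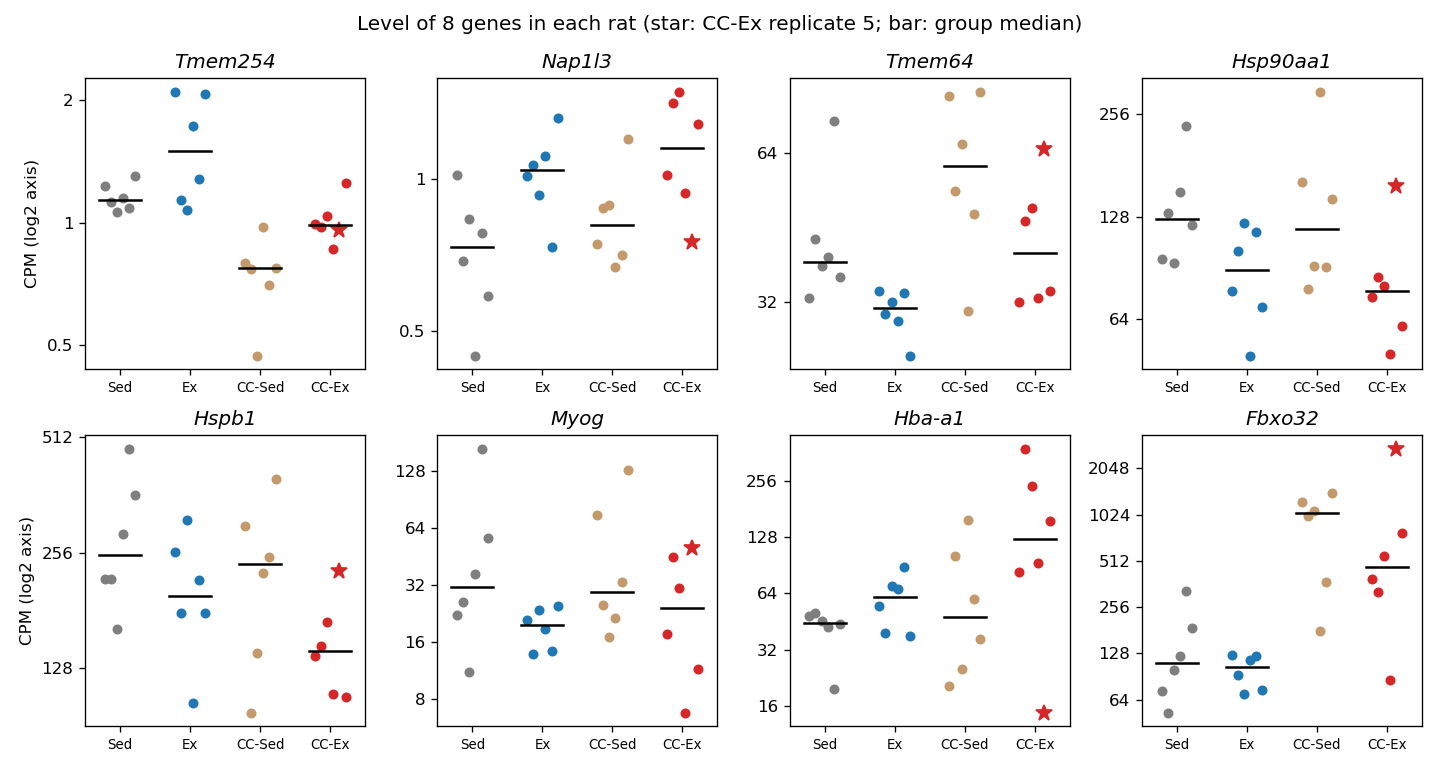
CPM of 8 genes in each of the 24 rats, on a log2 axis, by group; each point is 1 rat, the star is CC-Ex replicate 5 and the bar is the group median. The exercised groups overlap the sedentary groups in every panel, and CC-Ex replicate 5 is the highest CC-Ex rat for Tmem64, Hsp90aa1, Hspb1, Myog and Fbxo32 and the lowest for Nap1l3 and Hba-a1.

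A further set of genes came close to this criterion. Igfbp3, which binds insulin-like growth factors outside the cell, was at 5.90 to 9.75 CPM (median 8.55) in Sed and 8.97 to 12.1 CPM (median 10.5) in Ex. In CC-Sed it was at 10.99 to 15.6 CPM (median 13.9) and in CC-Ex at 13.1 to 22.5 CPM (median 15.4), with 11 of 12 exercised rats above the sedentary median of their injection. Its pooled Log2FC was 0.32 (unadjusted p = 0.00334), from 0.37 in saline and 0.27 in monocrotaline rats. Cyp26b1, an enzyme that breaks down retinoic acid, was also higher in 11 of 12 exercised rats. Its group median was 1.39 CPM in Sed against 2.81 in Ex, and 3.74 in CC-Sed against 5.05 in CC-Ex, with 1 Sed rat at 4.40 CPM, above every Ex rat. Its pooled Log2FC was 0.66 (standard error 0.210, unadjusted p = 0.00437). Acat2, a cytosolic thiolase of sterol synthesis, was nearly the same in both injections with all rats, with a Log2FC of 0.34 in saline and 0.32 in monocrotaline rats. Without CC-Ex replicate 5 its value in monocrotaline rats was 0.21 (unadjusted p = 0.190).

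Among the genes lower in exercised rats, the transcription factor Ets2 was at 31.2 to 83.2 CPM (median 43.1) in Sed and 21.8 to 39.7 CPM (median 31.9) in Ex, and at 34.8 to 105 CPM (median 61.8) in CC-Sed and 26.7 to 68.6 CPM (median 47.3) in CC-Ex. It was below the sedentary median in 11 of 12 exercised rats (pooled Log2FC -0.54, unadjusted p = 0.00679). Map7, which binds microtubules, had a Log2FC of -0.50 in saline and -0.40 in monocrotaline rats and was lower in 11 of 12. Kcnq5, a potassium channel subunit, was lower in 11 of 12 as well, with a larger difference in monocrotaline (-1.19) than in saline rats (-0.56), a gap that the interaction test did not separate (unadjusted p = 0.273). Cdc42ep4, an effector of the small GTPase Cdc42, was the only one of these named genes below the sedentary median in 12 of 12, at 19.1 to 23.2 CPM (median 21.3) in Ex against 17.3 to 29.9 CPM (median 23.8) in Sed, and at 20.4 to 22.9 CPM (median 21.99) in CC-Ex against 21.2 to 33.5 CPM (median 26.04) in CC-Sed. Even so the Ex range lay inside the Sed range and the CC-Ex range overlapped that of CC-Sed, and its pooled Log2FC was -0.24 (unadjusted p = 0.00495). Some of these values were smaller without Sed replicate 5 and CC-Sed replicates 1 and 6. Without them Kcnq5 went from -0.88 when pooled to -0.41 (unadjusted p = 0.101) and Ets2 to -0.30 (unadjusted p = 0.0846). Cdc42ep4 was then at -0.16 and Map7 at -0.53. Over all genes, 10 (0.0922%) had all 12 exercised rats on the same side of the sedentary median of their injection: Ace, Hira, Pnrc2, Tubgcp5 and Zfp324 above it, and Angel2, Cdc42ep4, Kbtbd12, Ralgapa1 and Smtnl2 below it. The exercised and sedentary rats did not overlap for 15 genes (0.138%) among saline and 1 gene (0.00922%) among monocrotaline rats, and for 0 genes in both with the same direction.

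The other genes with the smallest p were Dusp14, Galnt17, Manbal, Eif5a2 and LOC102549817 among those higher, and Myf6, Asb5, Lrrc42, Larp7 and Hsp90aa1 among those lower in exercised rats. Their pooled Log2FC ranged from 0.18 for Manbal to 0.73 for Dusp14 among the higher and from -0.19 for Larp7 to -0.70 for Hsp90aa1 among the lower. Dusp14, a phosphatase of mitogen-activated protein kinases, was at 1.15 to 2.96 CPM (median 2.73) in Sed and 2.30 to 4.66 CPM (median 3.48) in Ex, and at 1.00 to 2.06 CPM (median 1.44) in CC-Sed and 0.704 to 5.59 CPM (median 2.64) in CC-Ex, where the lowest value was that of replicate 5. For the 20 genes with the smallest p in the 2 directions, which were chosen by that p, two-sided exact permutation p-values with labels permuted within injection ran from 0.00111 for Tmem254 to 0.0228 for Dusp14, where the 853776 arrangements allow a p as small as 2.34e-06.

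Across all genes the training differences of healthy and of cachectic rats were not correlated. The Log2FC between Ex and Sed and that between CC-Ex and CC-Sed, which share no rats, had a Pearson correlation of 0.0127 and a Spearman correlation of -0.00679 over the 10851 genes, which are not independent replicates, and the same sign in 49.2% of them. In saline rats 118 genes (1.09%) had an unadjusted p under 0.05, 81 of them higher (0.746%). Of all 118, 65 had the same sign in monocrotaline rats. In monocrotaline rats 234 genes (2.16%) did, 116 of them higher (1.07%). Of all 234, 118 had the same sign in saline rats. Neither comparison called a gene at an adjusted p under 0.05, and neither did the test of the difference between them, in which 154 genes (1.42%) had an unadjusted p under 0.05. DESeq2 also called 0 genes in each of the 3. In edgeR the shares of 1.09%, 2.16% and 1.42% were each below the 5% of evenly spread p-values.

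This picture changed when CC-Ex replicate 5 was left out. The count of genes with an unadjusted p under 0.05 was then 963 (8.87%), 315 higher (2.9%) and 648 lower (5.97%) in exercised rats, against a range of 143 to 274 when any other rat was left out. Still 0 genes had an adjusted p under 0.05 in edgeR, the smallest being 0.515. Within injections, 1490 genes had an unadjusted p under 0.05 in monocrotaline rats and 188 in saline rats. Of the 1490, 1000 had the same sign in saline rats, and of the 188, 137 had it in monocrotaline rats. The correlation between the saline and monocrotaline Log2FC was then 0.223 (Spearman 0.206), with the same sign in 57.1% of genes. The genes with the same direction and an unadjusted p under 0.05 in both numbered 26 (0.24%), 13 in each direction, and 2 had opposite directions. The 13 that were lower included Tmem64, Map7 and Ets2, the chaperone genes Hsp90aa1, Ptges3 and Dnajb2 and the apoptosis gene Bax, and the 13 that were higher included Tmem254, Nap1l3, Dusp14, Igfbp3, Cyp26b1, the interferon signalling gene Stat2 and the mineralocorticoid receptor Nr3c2.

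**Figure D2:**
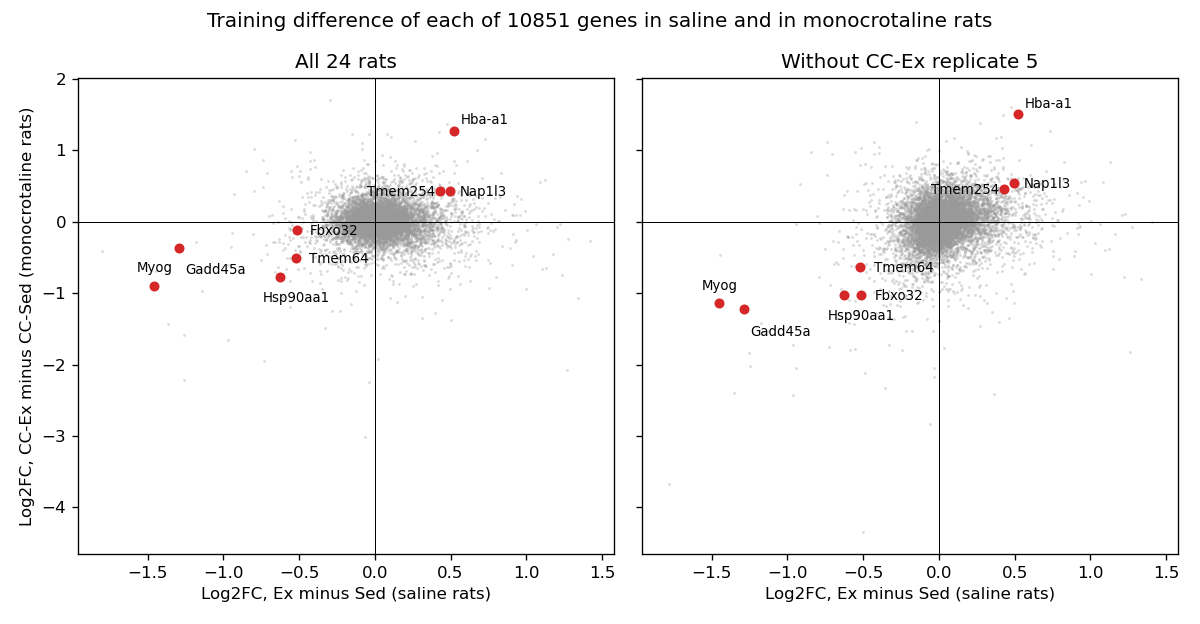
Log2FC of each gene between Ex and Sed (horizontal axis) and between CC-Ex and CC-Sed (vertical axis), with all 24 rats on the left and without CC-Ex replicate 5 on the right; each grey point is 1 of 10851 genes and red points are named genes. With all rats the cloud has no tilt (correlation 0.0127), and without that rat it leans towards the diagonal (0.223), with Fbxo32 and Gadd45a moving down.

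A second set of rats bears on the same genes. Sed replicate 5 and CC-Sed replicates 1 and 6, all of them sedentary, had the highest values of Myog in the series and high values of many genes of stress and wasting. Leaving out these 3 rats, chosen after their values were seen, gave 125 genes with an unadjusted p under 0.05 (1.15%) and again 0 at an adjusted p under 0.05. Leaving out these 3 and CC-Ex replicate 5 together gave 355 (3.27%), 164 higher and 191 lower, and 0 at an adjusted p under 0.05. The gene groups that these rats move most are therefore given with all 24 rats, without CC-Ex replicate 5, without the 3 sedentary rats and without all 4.

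Heat shock proteins and their partners were the group with the largest share of members under an unadjusted p of 0.05 among lists of at least 5 measured genes. Of 23 genes measured, 7 (30.4%) were lower in exercised rats at that p and 0 were higher, against 0.774% of all genes that were lower, and none had an adjusted p under 0.05. The median Log2FC of the list was -0.175, against 0.0108 over all genes, with -0.0942 in saline and -0.251 in monocrotaline rats. In 21 of the 23 genes the pooled Log2FC was below 0. The 7 genes were Hsp90aa1 and Hsp90ab1, the inducible and the constitutive cytosolic Hsp90, the constitutive Hsp70 Hspa8, the small heat shock proteins Hspb1 and Hspb8, the Hsp40 Dnaja1, and Bag3, a co-chaperone of autophagy.

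Hsp90aa1 lay at 93.6 to 236 CPM (median 126) in Sed and 49.9 to 122 CPM (median 89.5) in Ex, and at 78.3 to 298 CPM (median 118) in CC-Sed and 50.6 to 157 CPM (median 77.3) in CC-Ex. In 11 of 12 exercised rats it was below the sedentary median of the same injection, and the exception was CC-Ex replicate 5, the highest of its group. The pooled Log2FC was -0.70 (standard error 0.224, 95% interval -1.16 to -0.23, unadjusted p = 0.00482, two-sided exact permutation p = 0.00815). It was -0.63 in saline and -0.77 in monocrotaline rats. The value was -0.82 without CC-Ex replicate 5, -0.56 without the 3 sedentary rats and -0.68 without all 4.

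Hspb1 was at 162 to 478 CPM (median 252) in Sed and 104 to 312 CPM (median 197) in Ex, and at 97.7 to 397 CPM (median 238) in CC-Sed and 108 to 229 CPM (median 142) in CC-Ex. All 6 CC-Ex rats but only 4 of 6 Ex rats were below the sedentary median, with a pooled Log2FC of -0.56 (unadjusted p = 0.0159) that was -0.33 (unadjusted p = 0.104) without the 4 rats. Dnaja1 was at 46.3 to 70.98 CPM (median 53.4) in Sed and 33.2 to 60.4 CPM (median 37.9) in Ex, and at 34.1 to 103 CPM (median 44.96) in CC-Sed and 27.5 to 65.5 CPM (median 32.2) in CC-Ex, and its pooled Log2FC of -0.45 was -0.51 without the 4 rats. Hspb8 had its highest values in the same 3 sedentary rats (587 CPM in Sed replicate 5, 689.7 and 583 in CC-Sed replicates 1 and 6), and its Log2FC of -0.45 was -0.13 without the 4 rats. Hsp90ab1 (-0.22), Hspa8 (-0.27) and Bag3 (-0.32) had smaller pooled Log2FC values. Hspa1b, the inducible Hsp70, had the lowest Log2FC of the list, -0.91 (unadjusted p = 0.0645), but it has a near-identical copy with which it can share reads. Hspa2, a relative of Hspa8, was the other way, at 0.42 (unadjusted p = 0.0847). Without CC-Ex replicate 5 the list held 10 genes with an unadjusted p under 0.05 (43.5%, 9 of them lower), where 8.87% of all genes had one. It held 2 (8.7%) without the 3 sedentary rats, against 1.15% of all genes, and 4 (17.4%) without all 4, against 3.27%. With a score of slow-fibre genes in the model it held 8 (34.8%), 7 of them lower, against 2.39%, and with the library number as a covariate 3 (13.0%), all lower, against 1.11%. DESeq2 gave 8, against 2.32%, and limma-voom 6, of them 5 lower, against 5.39%.

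Heat shock genes are known to be switched on by the factor Hsf1 through heat shock elements, inverted repeats of a short unit near the start of transcription. Promoter sequences of the RefSeq assembly GRCr8 were found for 17 of the 23 measured genes. In the 250 bases before the start, 4 of the 17 (23.5%) held 3 units in alternating direction on either strand, GAA, TTC and GAA or TTC, GAA and TTC, each parted from the next by any 2 bases. This compares with 32 of 8712 tested genes with a promoter (0.367%) and with 164 of all 27457 promoters (0.597%). The 4 were Hspa8, Hsph1, Hspd1 and Hspe1, of which 1, Hspa8, had an unadjusted p under 0.05 for training. The elements of Hspd1 start 242 and 237 bases before, a pair spaced as in Hspe1. Whether Hspd1 and Hspe1 share the same elements was not tested, so the 4 may not be separate promoters. The promoters of Hspa8, Hsph1 and Hspe1 are shown to set the element beside genes with different training values, with its letters in capitals and 5′ to 3′ on the strand of the gene. Hspa8 is on the plus strand at chr8:50080264-50080513, with elements that start 213 and 55 bases before the start of transcription. Hsph1 is on the plus strand at chr12:10427118-10427367, with the element starting 36 bases before. Hspe1 is on the plus strand at chr9:64084077-64084326, with elements that overlap and start 65 and 60 bases before.
Hspa8: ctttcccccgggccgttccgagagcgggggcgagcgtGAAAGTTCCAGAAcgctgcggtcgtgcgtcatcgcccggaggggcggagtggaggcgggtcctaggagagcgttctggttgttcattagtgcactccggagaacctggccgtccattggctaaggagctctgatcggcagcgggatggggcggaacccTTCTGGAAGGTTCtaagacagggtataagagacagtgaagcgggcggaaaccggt
Hsph1: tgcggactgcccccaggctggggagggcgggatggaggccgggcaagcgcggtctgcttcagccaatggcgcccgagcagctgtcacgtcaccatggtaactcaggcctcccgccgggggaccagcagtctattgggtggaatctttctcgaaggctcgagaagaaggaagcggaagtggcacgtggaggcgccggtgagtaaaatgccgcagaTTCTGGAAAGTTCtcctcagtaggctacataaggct
Hspe1: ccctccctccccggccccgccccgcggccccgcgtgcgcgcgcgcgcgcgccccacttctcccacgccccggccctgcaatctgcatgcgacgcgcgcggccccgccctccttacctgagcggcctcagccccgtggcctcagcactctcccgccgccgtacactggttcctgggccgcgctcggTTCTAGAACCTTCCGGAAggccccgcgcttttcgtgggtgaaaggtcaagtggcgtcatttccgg

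The level of Hspa8 was 112.3 to 159 CPM (median 133) in Sed and 76.4 to 133 CPM (median 109) in Ex, and 99.7 to 149 CPM (median 136) in CC-Sed and 65.2 to 171 CPM (median 103) in CC-Ex, with 10 of 12 exercised rats below the sedentary median. Hsph1, an Hsp110 that reloads Hsp70, was at 61.1 to 141 CPM (median 85.8) in Sed and 54.6 to 89.9 CPM (median 72.02) in Ex, and at 39 to 127 CPM (median 56.8) in CC-Sed and 33.5 to 80.5 CPM (median 48.9) in CC-Ex, with a pooled Log2FC of -0.35 (unadjusted p = 0.0722). Hspe1 and Hspd1, the mitochondrial chaperonins, had pooled Log2FC values of -0.064 and -0.049, so genes with the element differed in how far their exercised and sedentary levels lay apart. A match to these letters is a description of the window and was not tested as a binding site.

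The proteasome, the protease that degrades ubiquitin-tagged proteins, had subunit genes that lay together below 0, with sizes within the error. All 31 of its measured subunit genes had a pooled Log2FC below 0, and so did all 31 in the saline and all 31 in the monocrotaline rats, with list medians of -0.15, -0.146 and -0.147. In all genes 45.2% had a pooled Log2FC below 0. Yet none of the 31 had an unadjusted p under 0.05, the smallest being 0.243 for Psmb7, and every 95% interval lay within a 2-fold change. Psmb7, of the catalytic core, was at 144 to 196 CPM (median 155) in Sed and 138 to 158 CPM (median 148) in Ex, and at 157 to 284 CPM (median 199) in CC-Sed and 148 to 289 CPM (median 181) in CC-Ex. Psmc1, a regulatory ATPase, was at 118 to 185 CPM (median 127) in Sed and 115 to 137 CPM (median 123) in Ex, and at 122 to 373 CPM (median 182) in CC-Sed and 115 to 337 CPM (median 161) in CC-Ex. For both genes the 3 highest rats were CC-Sed replicates 1 and 6 and CC-Ex replicate 5, and the highest saline rat was Sed replicate 5.

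Without CC-Ex replicate 5, 23 of the 31 proteasome genes (74.2%) were lower in exercised rats at an unadjusted p under 0.05, against 5.97% of all genes in that setting, and the list median was -0.301. By injection it was -0.144 in saline and -0.451 in monocrotaline rats. Without the 3 sedentary rats the median was 0.062 and 2 of 31 genes were below 0. Without all 4 rats it was -0.0899, with 30 of 31 genes below 0 and 1 gene with an unadjusted p under 0.05. Psmc1, for example, had a Log2FC of -0.19 with all rats, -0.31 without CC-Ex replicate 5, 0.082 without the 3 sedentary rats and -0.042 without all 4. Of the other settings run on the list none turned its sign: all 31 genes stayed below 0 in DESeq2, in limma-voom, with the slow-fibre score and with the library number as covariates, and without CC-Ex replicate 5. With any 1 rat left out the Log2FC of Psmc1 ranged from -0.31 to -0.079 and that of Psmb7 from -0.19 to -0.071.

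**Figure D3:**
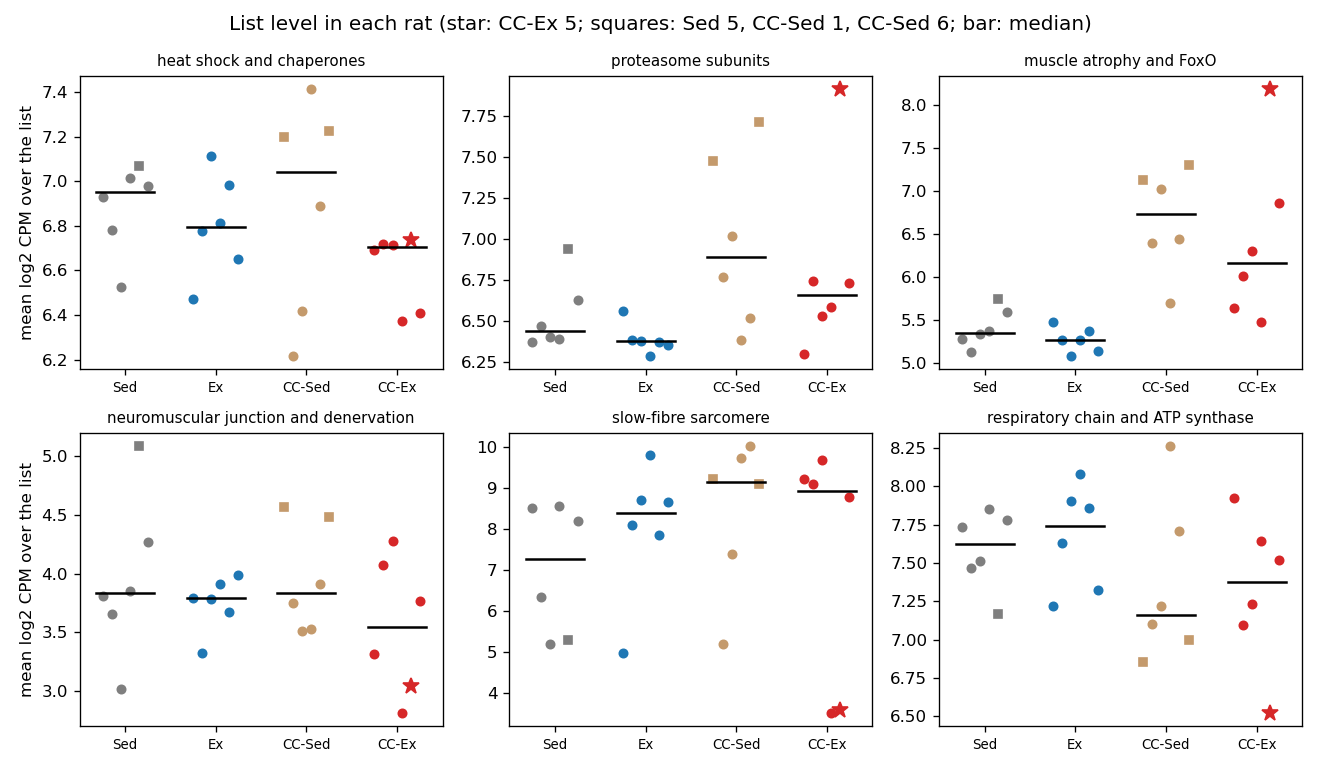
Mean log2 CPM over the measured genes of 6 lists in each rat, by group; each point is 1 rat, the star is CC-Ex replicate 5, squares are Sed replicate 5 and CC-Sed replicates 1 and 6, and the bar is the group median. For the proteasome and the atrophy lists the star is the highest rat of the series and the squares are the highest rats of Sed and CC-Sed, while in the slow-fibre panel 3 Sed rats, 1 Ex rat, 1 CC-Sed rat and 2 CC-Ex rats lie below 7 on the vertical axis.

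The size of the differences in genes of muscle atrophy depended on CC-Ex replicate 5 as well. Of 20 atrophy and FoxO target genes, 0 had an unadjusted p under 0.05 with all rats, and the list median was -0.0171. Fbxo32, the ubiquitin ligase atrogin-1, was at 52.2 to 326 CPM (median 111) in Sed and 69.5 to 125 CPM (median 105) in Ex. In CC-Sed it was at 179 to 1415 CPM (median 1042) and in CC-Ex at 86.04 to 2755 CPM (median 469.9), where the highest value was that of replicate 5. The median of CC-Ex was thus below that of CC-Sed, but the pooled Log2FC of -0.32 was within its error (standard error 0.413, unadjusted p = 0.452), while it was -0.76 (unadjusted p = 0.0412) without CC-Ex replicate 5 and 0.091 without the 3 sedentary rats. Trim63, the ligase MuRF1, was at 159 to 640.4 CPM (median 239) in Sed and 157 to 295 CPM (median 192) in Ex, and at 348 to 2797 CPM (median 1313) in CC-Sed and 190.2 to 4846 CPM (median 452) in CC-Ex. The Log2FC pooled over injections was -0.39 (unadjusted p = 0.381), -0.98 (unadjusted p = 0.00997) without CC-Ex replicate 5 and -0.47 (unadjusted p = 0.140) without the 4 rats.

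The growth arrest genes Gadd45a and Cdkn1a were very high in a few rats. Gadd45a was at 11.3 to 109 CPM (median 14.5) in Sed, 11.1 to 17.2 CPM (median 13.99) in Ex, 12.1 to 139.8 CPM (median 36.6) in CC-Sed and 8.56 to 151 CPM (median 30.6) in CC-Ex. The 4 rats above 100 CPM were Sed replicate 5, CC-Sed replicates 1 and 6 and CC-Ex replicate 5. Its pooled Log2FC was -0.83 with all rats, -1.26 without CC-Ex replicate 5 and -0.29 without the 4. Cdkn1a, which encodes the inhibitor p21, gave -0.72, -1.29 and -0.52 in the same order. Without CC-Ex replicate 5, 8 of the 20 atrophy genes (40.0%) were lower at an unadjusted p under 0.05, where 5.97% of all genes were. The list median was then -0.323, compared with 0 genes and 0.0812 without the 3 sedentary rats and 0 genes and -0.184 without all 4. Split by injection, the median without CC-Ex replicate 5 was -0.0815 in saline and -0.587 in monocrotaline rats.

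Antioxidant genes, many of them targets of the stress factor Nrf2, held 1 of 25 (4.0%) with an unadjusted p under 0.05. This was Sod1, the cytosolic superoxide dismutase, at 106 to 131 CPM (median 113) in Sed and 91.5 to 109 CPM (median 104) in Ex, and at 114 to 185 CPM (median 132) in CC-Sed and 105 to 145 CPM (median 111) in CC-Ex. It was lower in 11 of 12 exercised rats with a pooled Log2FC of -0.22 (standard error 0.0753, unadjusted p = 0.00766, two-sided exact permutation p = 0.00521), and -0.11 (unadjusted p = 0.0780) without the 4 rats. The share over all genes was 1.77%. Without CC-Ex replicate 5 the count was 7 of 25, all lower, against 5.97% of all genes, while it was 0 without the 3 sedentary rats and 3 without all 4. The list median without CC-Ex replicate 5 was -0.0233 in saline and -0.237 in monocrotaline rats. Among the 7 was the sulfiredoxin Srxn1, whose Log2FC was -0.46 with all rats and -1.27 without that rat, which had 8.84 CPM against a CC-Ex median of 0.644 CPM.

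Of 18 myogenic and satellite cell factors, 2 (11.1%) had an unadjusted p under 0.05, Myf6 and Myog, both lower in exercised rats, against 0.774% of all genes that were lower. The list held 2 also in DESeq2, with the slow-fibre score and without CC-Ex replicate 5, 1 with the library number as a covariate, without the 3 sedentary rats and without all 4, and 0 in limma-voom. Myf6, the factor MRF4 of mature fibres, was at 80.8 to 176 CPM (median 106) in Sed and 67.1 to 122 CPM (median 97.5) in Ex, and at 132 to 286 CPM (median 216) in CC-Sed and 93.1 to 171 CPM (median 122) in CC-Ex. All 6 CC-Ex rats but only 3 of 6 Ex rats were below the sedentary median of their injection. Its Log2FC was -0.78 in monocrotaline rats (unadjusted p = 0.000821) and -0.22 in saline rats (unadjusted p = 0.279), a difference that was not separated by the interaction test (unadjusted p = 0.0635), and -0.50 when pooled (unadjusted p = 0.00293). It was -0.42 (unadjusted p = 0.0145) without the 4 rats.

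Myog, which encodes myogenin and is known to be induced when muscle loses its nerve supply, was at 11.1 to 168 CPM (median 31.2) in Sed and 13.9 to 24.9 CPM (median 19.8) in Ex. In the monocrotaline rats it was at 17.1 to 129 CPM (median 29.2) in CC-Sed and 6.74 to 50.1 CPM (median 24.2) in CC-Ex. All 6 Ex rats but 3 of 6 CC-Ex rats were below the sedentary median, and no exercised rat was above 50.1 CPM while 4 of 12 sedentary rats were. The pooled Log2FC was -1.18 (standard error 0.414, unadjusted p = 0.009, two-sided exact permutation p = 0.05). The highest values were those of Sed replicate 5 (168 CPM) and CC-Sed replicates 6 (129) and 1 (74.6), the rats that this gene picked out, and without them it was -0.29 (unadjusted p = 0.379).

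Runx1, another gene that denervation is known to induce, showed the same rats, at 3.16 to 32.2 CPM (median 3.61) in Sed, 2.22 to 7.55 CPM (median 3.01) in Ex, 2.19 to 19.6 CPM (median 2.96) in CC-Sed and 1.67 to 11.5 CPM (median 2.42) in CC-Ex. Its pooled Log2FC of -1.05 (unadjusted p = 0.0402, two-sided exact permutation p = 0.185) turned to 0.25 without the 3 sedentary rats. Myog and Runx1 were the 2 of 16 neuromuscular junction and denervation genes (12.5%) with an unadjusted p under 0.05, while the acetylcholine receptor subunits Chrna1, Chrnb1, Chrnd, Chrne and Chrng all had a p above it. Over all genes the share was 1.77%. Without CC-Ex replicate 5 the list held 6 of 16 (37.5%, 5 of them lower, against 8.87% of all genes), with a median of -0.264 and a Log2FC of -1.30 for Myog (unadjusted p = 0.00450) and -1.32 for Runx1 (unadjusted p = 0.0110). It held 2 in DESeq2 and 3 with the slow-fibre score, but 0 in limma-voom, with the library number as a covariate, without the 3 sedentary rats and without all 4. The list median was -0.173 with all rats, with 12 of 16 genes below 0. Without the 3 sedentary rats it was 0.0389, with 4 of 16 below 0. Without all 4 rats it was 0.0319, with 5 of 16 below 0. Ankrd1, a stretch-responsive protein of the sarcomere, had the largest pooled difference of any gene, -1.73 (standard error 0.677, unadjusted p = 0.0171). It lay at 10.4 to 349 CPM (median 19.7) in Sed, 11.3 to 110.2 CPM (median 15.9) in Ex, 10.1 to 212 CPM (median 15.3) in CC-Sed and 3.79 to 44.5 CPM (median 8.09) in CC-Ex, and its Log2FC was 0.17 without the 3 sedentary rats. In all, 11 genes had a pooled Log2FC of at least 1 in size, and all 11 were lower in exercised rats: Ankrd1, Nr4a3, Eda2r, Ppp1r14c, Dclk1, Tubb6, Myog, Csrp3, LOC102555453, Prima1 and Runx1. None of them had an adjusted p under 0.05, and their 95% intervals were wide, from -3.13 to -0.34 for Ankrd1.

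The genes that endurance training is best known for held no member with an unadjusted p under 0.05 in the pooled comparison, where 1.77% of all genes had one. None of 20 regulators of mitochondrial biogenesis, 71 genes of the respiratory chain and ATP synthase, 19 of the citric acid cycle, 24 of fatty acid oxidation, 17 of fatty acid uptake and lipid droplets, 28 of glucose use, 22 of capillary growth and 10 of the slow-fibre sarcomere did. Some members did in other settings: 2 of the mitochondrial biogenesis regulators were lower without CC-Ex replicate 5, 1 in limma-voom and 1 without all 4 rats, 2 fatty acid oxidation genes were lower and 1 slow-fibre gene was higher with the slow-fibre score in the model, and 1 gene of glucose use was lower without the 3 sedentary rats. The pooled medians of these lists with all rats lay between -0.12 for fatty acid oxidation and 0.231 for the slow-fibre genes. For the respiratory chain the median was 0.0171, with a 95% interval within a 2-fold change for 70 of 71 genes.

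With all rats, the 2 injections stood on opposite sides for several of these lists. Slow-fibre genes had a median Log2FC of 0.822 in saline and -0.453 in monocrotaline rats, fatty acid oxidation 0.131 and -0.364, fatty acid uptake and lipid droplets 0.105 and -0.331, and the respiratory chain 0.0929 and -0.0505. Without CC-Ex replicate 5 the medians in monocrotaline rats were -0.194, -0.314, -0.296 and 0.0797 in the same order. CC-Ex replicate 4 was low for the slow-fibre genes as well. Their mean log2 CPM was 3.514 in that rat and 3.592 in CC-Ex replicate 5. It was 8.765 to 9.684 in the other CC-Ex rats and 5.204 to 10.01 in CC-Sed. For the slow-fibre genes the other CC-Ex rats thus lay on both sides of the CC-Sed median. Whether the slow-fibre and fatty acid medians in monocrotaline rats stay below 0 without CC-Ex replicates 4 and 5 was not tested. Of the 24 fatty acid oxidation genes, 2 were below 0 in saline and 23 in monocrotaline rats. The respiratory chain depended on the rats as well, since 24 of 71 genes were below 0 with all rats, 1 without CC-Ex replicate 5, and 68 without the 3 sedentary rats.

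Ppargc1a, the coactivator of mitochondrial biogenesis, was at 10.99 to 22.4 CPM (median 17.8) in Sed and 13.5 to 25.1 CPM (median 19.9) in Ex, and at 10.7 to 68.1 CPM (median 35.6) in CC-Sed and 3.26 to 52.5 CPM (median 20.4) in CC-Ex. Its Log2FC was 0.23 in saline and -0.73 in monocrotaline rats and -0.25 when pooled (unadjusted p = 0.452). Dgat2, which makes triglycerides, was at 18.6 to 52.3 CPM (median 28.96) in Sed and 25.7 to 101 CPM (median 31.7) in Ex, and at 35.5 to 160.4 CPM (median 95.4) in CC-Sed and 26.3 to 61.1 CPM (median 52.1) in CC-Ex. Its Log2FC was 0.49 in saline rats (unadjusted p = 0.172) and -0.94 in monocrotaline rats (unadjusted p = 0.0132), with an unadjusted p of 0.00806 for the difference, and -0.23 when pooled. Tnnc1, the slow and cardiac troponin C, was at 6.62 to 311 CPM (median 138) in Sed, 3.74 to 928 CPM (median 275) in Ex, 9.31 to 1111 CPM (median 713) in CC-Sed and 0.375 to 1003 CPM (median 488) in CC-Ex, with CC-Ex replicates 4 and 5 both below 1 CPM. Its Log2FC over all rats was 0.36 with a 95% interval of -1.56 to 2.29. The endothelial gene Vwf was at 22.9 to 33.9 CPM (median 26.8) in Sed and 27.2 to 47.5 CPM (median 34.9) in Ex, and at 51.02 to 96.8 CPM (median 79.7) in CC-Sed and 31.2 to 133 CPM (median 75.04) in CC-Ex, and its pooled Log2FC was 0.21 (unadjusted p = 0.255).

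**Figure D4:**
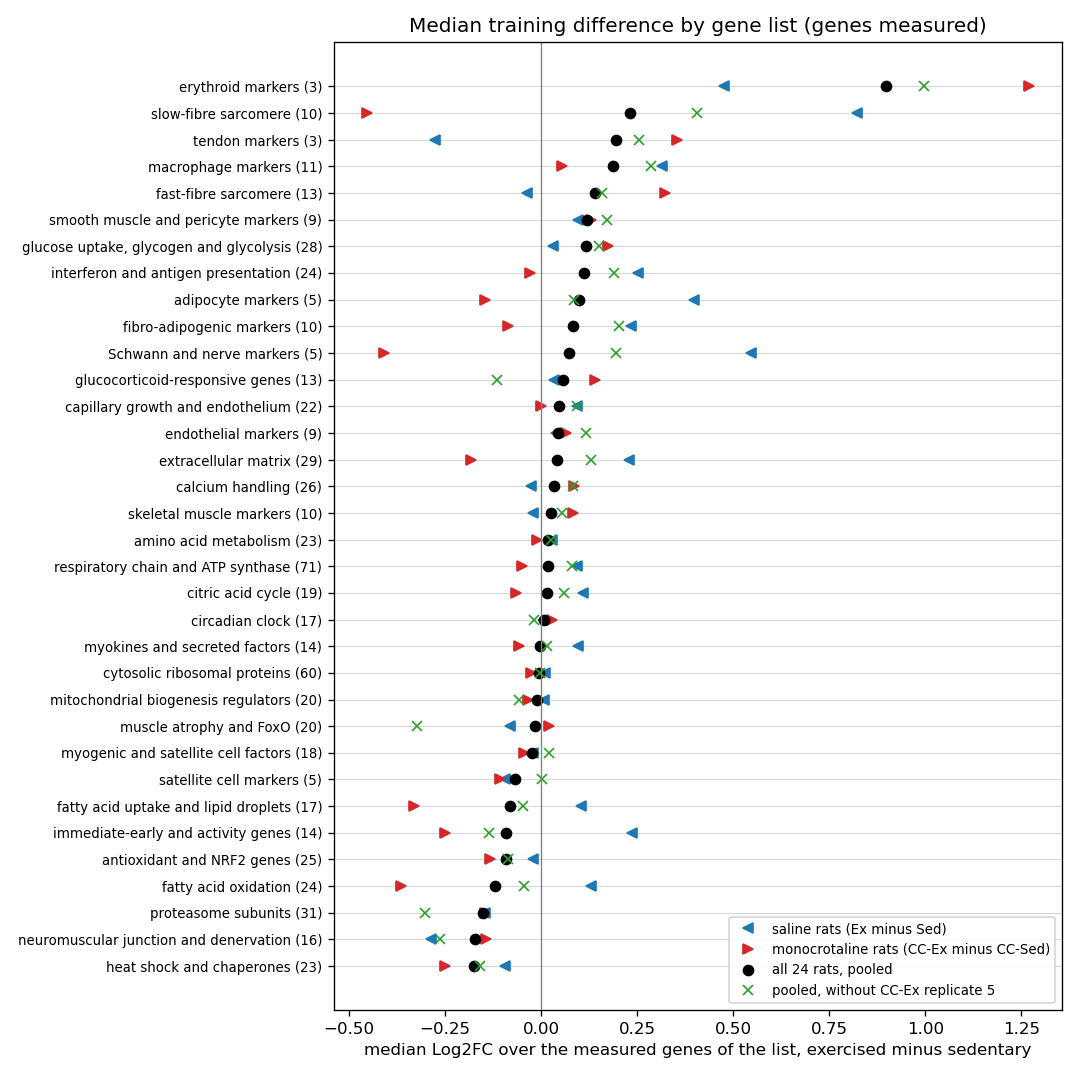
Median Log2FC, exercised minus sedentary, over the measured genes of 34 lists (number measured in parentheses), in saline rats (blue triangles), monocrotaline rats (red triangles), all 24 rats (black points) and all but CC-Ex replicate 5 (green crosses); there are no error bars, since genes of a list are not replicates. With no rat left out, lists with both triangles on the same side of 0 include the hemoglobin genes on the right and the heat shock, denervation and proteasome genes on the left, while the slow-fibre and fatty acid lists have them on opposite sides. The sides of several of these lists depend on single rats, as given in the text.

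Other lists, apart from the cell markers, held at most 2 genes with an unadjusted p under 0.05, where 1.77% of all genes had one. Of 24 interferon and antigen presentation genes, 2 were higher, namely Stat2 (0.21, unadjusted p = 0.0312) and RT1-A2, a class I histocompatibility gene (0.83, unadjusted p = 0.0130). RT1-A2 belongs to a family of near-identical copies that can share reads, so its value is uncertain. Stat2 was at 13.8 to 19.2 CPM (median 14.96) in Sed and 15.6 to 21.7 CPM (median 18.4) in Ex, and at 13.2 to 19.9 CPM (median 16.1) in CC-Sed and 11.3 to 22.2 CPM (median 19.1) in CC-Ex, above the sedentary median in 11 of 12 exercised rats, with CC-Ex replicate 5 the lowest. The circadian repressor Bhlhe41 (0.59, unadjusted p = 0.0387), 1 of 17 clock genes, and the calcium-calmodulin kinase Camk2d (0.32, unadjusted p = 0.0484), 1 of 26 calcium handling genes, were higher. The amino acid transporter Slc38a2, 1 of 23 genes of amino acid metabolism, was lower in 11 of 12 exercised rats (-0.36, unadjusted p = 0.01).

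The nuclear receptor Nr4a3, which responds quickly to muscle activity, was the 1 of 14 immediate-early genes (7.14%) with an unadjusted p under 0.05, against 1.77% of all genes. Its difference lay in the monocrotaline rats. It was at 2.64 to 7.13 CPM (median 3.17) in Sed and 0.772 to 8.43 CPM (median 2.68) in Ex, but at 1.85 to 118 CPM (median 44.96) in CC-Sed and 1.44 to 12.1 CPM (median 5.07) in CC-Ex. Its Log2FC was -0.067 in saline and -3.02 in monocrotaline rats (unadjusted p = 0.00734 for the difference) and -1.59 when pooled (unadjusted p = 0.0204). None of 13 fast-fibre, 29 extracellular matrix, 14 myokine, 13 glucocorticoid-responsive and 60 ribosomal protein genes had an unadjusted p under 0.05 in the pooled comparison.

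The 5 genes with the smallest p for a difference between the 2 injections were Phlpp2, Micall2, Dnajb14, Nav3 and Creb5. The smallest was that of Phlpp2, a phosphatase of Akt, with a Log2FC of 0.34 in saline and -0.61 in monocrotaline rats (unadjusted p = 0.000635, edgeR adjusted p = 1). Micall2, a regulator of the actin cytoskeleton, was the gene with opposite directions at an unadjusted p under 0.05 in both. All 6 Ex rats were above the Sed median, at 1.14 to 2.06 CPM (median 1.41) against 0.917 to 1.29 CPM (median 1.13), and all 6 CC-Ex rats were below the CC-Sed median, at 0.840 to 1.52 CPM (median 1.32) against 1.29 to 2.60 CPM (median 1.82) (unadjusted p = 0.00125 for the difference, edgeR adjusted p = 1).

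Hemoglobin transcripts, carried by red cells and their precursors in the blood of the sample, were higher in most exercised rats. All 3 erythroid markers measured, of 9 listed, were higher at an unadjusted p under 0.05, against 0.995% of all genes, and none had an adjusted p under 0.05. Hba-a1 was at 19.7 to 50.03 CPM (median 44.6) in Sed and 37.97 to 88.2 CPM (median 61.2) in Ex, and at 20.5 to 158 CPM (median 48.1) in CC-Sed and 14.7 to 380.1 CPM (median 124) in CC-Ex. In 9 of 12 exercised rats it was above the sedentary median, and CC-Ex replicate 5, at 14.7 CPM, was the lowest of the series. Its pooled Log2FC was 0.90 (standard error 0.377, unadjusted p = 0.0255, two-sided exact permutation p = 0.0757), 0.52 in saline and 1.27 in monocrotaline rats. Hba-a3 (0.92) and Hbb (0.84) were alike, which adds little, since Hba-a1 and Hba-a3 are near-identical copies whose reads may be split and all 3 come from the same cells. The summed level of the 3 ranged over 49.9 to 129.8 CPM in Sed against 92.2 to 209.6 in Ex, and over 50.5 to 409 CPM in CC-Sed against 33.8 to 960 in CC-Ex. All 3 had an unadjusted p under 0.05 also in DESeq2, in limma-voom and without CC-Ex replicate 5, where the median was 0.997 and Hba-a1 had an unadjusted p of 0.00607. It was 2 of 3 with the slow-fibre score and without all 4 rats, and 0 of 3 with the library number as a covariate and without the 3 sedentary rats. The part of blood in any other result was not tested.

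Markers of other cells in the muscle differed less. All 11 macrophage markers measured were above 0 in the pooled comparison (median 0.186, smallest unadjusted p 0.399), with a summed level of 28.2 to 200.3 CPM in Sed against 47.6 to 254 in Ex, and of 53.5 to 189.6 CPM in CC-Sed against 42.8 to 292 in CC-Ex. The satellite cell markers held 1 of 5 with an unadjusted p under 0.05 (1.77% of all genes had one), Vcam1, a cell adhesion protein also made by endothelium (0.42, unadjusted p = 0.0378). None of the endothelial (9), fibro-adipogenic (10), smooth muscle and pericyte (9), adipocyte (5), Schwann and nerve (5), tendon (3) and skeletal muscle (10) markers did.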

How the data were processed

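RNA from the medial gastrocnemius of 24 rats was sequenced as stranded poly(A) libraries. The authors trimmed reads with Trim Galore, quantified transcripts of mRatBN7.2 with Salmon and summed them to genes, and they deposited estimated counts, which are not whole numbers and were rounded here. The submitters' processing notes also name DESeq2 1.44.0. The deposited table holds 10851 genes with no count under 10 in any rat, and every column was matched to a rat by its label.

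Counts were scaled by TMM (trimmed mean of M values) and fitted in edgeR 4.0.16 (R 4.3.3) by quasi-likelihood with terms for injection and training. A fit over the 4 groups gave the training effect in saline rats, in monocrotaline rats and their difference. P-values were adjusted over all genes by Benjamini-Hochberg, with a threshold of 0.05. CPM were computed on TMM-scaled library sizes, with a prior count of 2 on the log2 scale. A shared shift is a gene with an unadjusted p under 0.05 and the same direction in both injections. Two-sided exact permutation tests exchanged training labels within injection. DESeq2 1.42.0, limma 3.58.1 and other filters, scalings and covariates were alternatives. The library number used as a covariate is the number that opens each library name. It ran from 1 to 14 in CC-Ex, 4 to 21 in CC-Sed, 7 to 23 in Ex and 9 to 24 in Sed. It is thus not balanced over training, and the labels do not say what it records. The fits were tested on simulated data.

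Named genes were the 10 higher and 10 lower genes with the smallest p, shared shifts, the 5 with the smallest p for a difference between injections, the members of each list with the smallest p, and genes the study followed up. Further members were named after their values were seen. The members and lists were chosen with earlier results of these data known. Promoters were taken from RefSeq (GRCr8), and no coordinates of the deposited build were used.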

Additional observations from a re-analysis of the deposited data

Results flagged for a closer look

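Values of 58 named genes were screened in each of the 4 groups for a rat far from the other 5 of its group, by Dixon's gap-to-range ratio. Of 232 group values 39 passed the 95% critical value for 6 rats. A rate of about 1 in 20 holds for unrelated, normally distributed values. It is no yardstick here, since these genes vary together and some were named after their values were seen. No explanation was tested for any of them.

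Most belonged to 2 rats. CC-Ex replicate 5 was far above the rest of CC-Ex for the ubiquitin ligases Trim63 (4846 CPM, group median 452.4) and Fbxo32 (2755 CPM, median 469.9). The same held for the growth arrest and stress genes Gadd45a (151.2 CPM), Cdkn1a (51.32 CPM), Bax (8.514 CPM) and Srxn1 (8.843 CPM, median 0.6438). It also held for the proteasome genes Psmc1 (337.3 CPM), Psmc2 (328 CPM), Psmb7 (288.6 CPM) and Psmd7 (247.3 CPM), and for the chaperone genes Bag3 (232.7 CPM), Hsp90aa1 (157.1 CPM) and Dnaja1 (65.46 CPM). Sed replicate 5 was far above the rest of Sed for the denervation genes Myog (168 CPM, median 31.19) and Runx1 (32.2 CPM), for Ankrd1 (349.4 CPM, median 19.74), and for Gadd45a (109.4 CPM), Cdkn1a (29.35 CPM) and Srxn1 (2.521 CPM). It was also the high rat for Hspb8 (586.6 CPM), Psmd7 (147.8 CPM), Sod1 (130.9 CPM), Ets2 (83.24 CPM) and Tmem64 (74.41 CPM), and the low rat for Hba-a1 (19.7 CPM, median 44.57).

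The others were spread over more rats. In the sedentary groups they were Myf6 (175.6 CPM) and Nr4a3 (7.127 CPM) in Sed replicate 6, Stat2 (19.16 CPM) and Cyp26b1 (4.399 CPM) in Sed replicate 1, and Hsph1 (127 CPM) and Dnaja1 (103.4 CPM) in CC-Sed replicate 4. In the exercised groups they were Trim63 (294.6 CPM) and Cdkn1a (9.357 CPM) in Ex replicate 1, Dgat2 (100.9 CPM) and RT1-A2 (6.844 CPM) in Ex replicate 4, and Ankrd1 in Ex replicate 6 (110.2 CPM) and CC-Ex replicate 3 (44.47 CPM). Bhlhe41 was high in CC-Ex replicate 4 (19.19 CPM) and Sod1 in CC-Ex replicate 2 (144.8 CPM).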

How the results depend on the processing

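The pooled training effect stayed at 0 genes with an adjusted p under 0.05 in every alternative run, and so did the training effects within saline and within monocrotaline rats, including every fit that left out 1 rat. The count of genes with an unadjusted p under 0.05, 192 with all rats, was 585 in limma-voom with sample weights, 120 with the library number as a covariate, 872 without CC-Ex replicates 4 and 5, 125 without Sed replicate 5 and CC-Sed replicates 1 and 6, and 355 without those 3 and CC-Ex replicate 5. Leaving out 1 rat at a time gave 143 to 963, the highest without CC-Ex replicate 5. The 3 shared shifts became 6 in DESeq2, 6 with upper-quartile normalization, 24 without CC-Ex replicates 4 and 5, 8 without the 4 rats, and 1 to 26 when 1 rat was left out. The cause of these moves was not tested, beyond the smaller number of rats in some of them.

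Some pooled Log2FC values changed sign, none of which had an adjusted p under 0.05 in any fit. Without Sed replicate 5 and CC-Sed replicates 1 and 6 they were 0.25 for Runx1, 0.18 for Srxn1, 0.17 for Ankrd1 (0.264 without the 4 rats), 0.11 for Gadd45a, 0.0923 for Trim63, 0.0906 for Fbxo32, 0.0819 for Psmc1, 0.0198 for Cdkn1a, 0.0198 for Psmc2 and 0.00776 for Psmb7. In limma-voom Dgat2 was at 0.0164 and Ppargc1a at 0.0417, and with a slow-fibre score in the model Tnnc1 was at -0.29. Over the fits that left out 1 rat, 1432 of the values kept their side and 8 counts moved by more than 1.5 times. The sets of rats left out together were chosen after seeing the data.

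Replicate numbers in the labels join different animals, and rats with the same number did not deviate together: 3 of 12 pairs had a correlation over 0.1 (range -0.588 to 0.375, mean -0.12). With the replicate number as a block 0 genes had an adjusted p under 0.05 and 145 an unadjusted p under 0.05. Counts over 37816239 per rat leave counting error small beside the differences between rats (biological coefficient of variation 0.281) for genes with high counts. For these the spread between rats and their number set the limits. Of 10851 genes, 9136 had at least 50 counts in every rat. In genes near the floor, such as Tmem254 and Nap1l3, counting error is a larger part of the spread. A gene with a count under 10 in any of the rats is absent from the deposited counts and was not analysed here.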
